A study of Mus musculus with 12 samples.

Results

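The eosinophil granule genes Epx, Prg2, Prg3, Ear1, Ear2 and Il5ra were followed across 12 RNA-seq libraries of mouse bone marrow cells carrying mutant SETBP1, mutant NRAS, both or neither. They are 6 of the 19910 genes in the count table and were picked by symbol, because earlier results had shown that libraries of the same group differed in them. Their levels are therefore described without p-values. All 4 groups were made from marrow of female C57BL/6J mice 6 to 10 weeks old, and every sample received 2 retroviral vectors. The empty group carried 2 empty vectors, the SETBP1 group carried SETBP1 D868N and an empty vector, the NRAS group carried an empty vector and NRAS G12D, and the SETBP1+NRAS group carried both mutants (n = 3 libraries each). The labels call the cells of all 4 groups murine leukemia cells, so the empty group is a vector control of the same kind of culture and not untouched marrow. Nothing in the labels says whether the 3 libraries of a group came from separate mice or separate transductions, so the spread between them may be technical.

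Eosinophils are granulocytes that develop in the bone marrow, where GATA1, C/EBP family factors and PU.1 direct progenitors towards the lineage and interleukin-5 drives their expansion and survival. Their specific granules are packed with cationic proteins. Prg2 encodes major basic protein, which forms the crystalline core, and Prg3 encodes its paralog. Epx encodes eosinophil peroxidase, which makes hypobromous acid, while Ear1 and Ear2 belong to the rodent family of eosinophil-associated ribonucleases. Il5ra encodes the ligand-binding chain of the interleukin-5 receptor, which signals through the common beta chain encoded by Csf2rb.

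In the GENCODE M21 annotation of the mouse genome build GRCm38, to which mm10 corresponds, Epx has 13 exons on the minus strand at chr11:87864000-87875536. Prg2 (chr2:84980461-84983632) and Prg3 (chr2:84988215-84993886) each have 6 exons and lie next to each other on the plus strand, 4582 bases apart. Ear1 (chr14:43818765-43875517, minus strand) and Ear2 (chr14:44102654-44103534, plus strand) have 2 exons each. Il5ra has 11 exons at chr6:106710357-106749037 on the minus strand.

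The 250 bases upstream of the RefSeq transcript start are shown for the genes whose reads are described most closely, because they carry the sequence shared by the ribonuclease pair and the GATA and C/EBP letters of factors that act in this lineage. RefSeq promoter sequences (GRCm38.p6) were found for 5 of the 6 genes, all but Prg2. Each is printed 5′ to 3′ on the strand of the gene, and capitals mark matches to GATAA or TTATC, or to TTGCNNAA or TTNNGCAA. The positions are chr11:87875537-87875786 (minus strand) for Epx, chr2:84987965-84988214 (plus strand) for Prg3, chr14:43819640-43819889 (minus strand) for Ear1 and chr14:44102404-44102653 (plus strand) for Ear2. For Ear1 this stretch adjoins the start of the shorter of its 2 annotated transcripts and lies inside the gene span given above, which a second transcript with a distant first exon extends.
Epx: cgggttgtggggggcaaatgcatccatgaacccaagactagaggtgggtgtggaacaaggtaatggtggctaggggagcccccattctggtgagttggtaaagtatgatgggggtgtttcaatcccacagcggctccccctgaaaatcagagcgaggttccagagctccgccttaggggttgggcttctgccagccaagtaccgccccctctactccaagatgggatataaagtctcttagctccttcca
Prg3: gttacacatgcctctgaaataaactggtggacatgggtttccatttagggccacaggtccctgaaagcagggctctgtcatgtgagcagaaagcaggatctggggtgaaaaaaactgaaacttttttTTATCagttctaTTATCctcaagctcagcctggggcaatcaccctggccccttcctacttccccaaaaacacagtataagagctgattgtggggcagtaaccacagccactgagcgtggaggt
Ear1: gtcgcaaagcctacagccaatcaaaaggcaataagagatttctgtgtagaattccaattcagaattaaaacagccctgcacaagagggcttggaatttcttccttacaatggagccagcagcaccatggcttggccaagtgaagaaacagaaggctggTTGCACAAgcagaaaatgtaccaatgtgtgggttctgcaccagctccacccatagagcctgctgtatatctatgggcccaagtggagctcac
Ear2: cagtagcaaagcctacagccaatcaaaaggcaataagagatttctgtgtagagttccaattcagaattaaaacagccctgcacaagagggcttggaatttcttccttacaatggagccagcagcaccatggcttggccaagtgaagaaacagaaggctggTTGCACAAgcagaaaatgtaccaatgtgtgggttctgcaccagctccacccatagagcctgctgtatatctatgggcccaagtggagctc
The Ear1 and Ear2 sequences were identical at 246 of 248 aligned bases (99.2%), and each held the letters TTGCACAA, at -92 to -85 in Ear1 and -90 to -83 in Ear2, counted back from those starts. The Prg3 sequence held TTATC at -123 to -119 and again at -111 to -107. Il5ra, whose sequence is not printed, held GATAA at -73 to -69, and the Epx sequence held no match to either motif. A match to the GATA letters on either strand was present in 22.6% of 32851 mouse promoter sequences of the same length, with 2 or more in 4.28%, and a match to the C/EBP letters in 9.56%. The PU.1 letters GAGGAA or TTCCTC were also searched. They matched none of the 5 sequences, against 23.3% of the 32851. Such letters are common, and the matches describe the sequences and do not mark binding.

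The libraries held 7085894 to 8864919 counted reads, and 10993 genes passed the low-count filter and were tested. SETBP1 replicate 3 stood apart from the other 11 libraries: its Pearson r of log2 expression with the other SETBP1 libraries was 0.946 and 0.953, against 0.984 to 0.991 for every other pair of libraries of one group. It lay at -69.0 on the second principal component, where the others ran from -11.9 to 26.3, and had reads for 11835 genes against 12461 to 12800. Values and counts without it are given where stated, and not for every gene of the lists. Normalised CPM below are the counts scaled by library size and TMM, edgeR's correction for differences in composition.

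Epx was abundant in the empty libraries and differed widely between libraries of one group. Its read counts were 1195, 403 and 932 in empty replicates 1, 2 and 3, an order kept throughout, 98, 719 and 0 with SETBP1, 359, 373 and 902 with NRAS, and 284, 88 and 38 with SETBP1+NRAS. In normalised CPM this gave 103 ± 45.0 (SD, n = 3) in the empty group, 35.3 ± 51.2 with SETBP1, 70.7 ± 37.8 with NRAS and 18.7 ± 18.5 with SETBP1+NRAS. SETBP1 replicate 2, at 94.0, lay within the range of the empty group, whereas replicate 1 had 11.8 and replicate 3 had no read. Against a floor of 3 reads per library, replicate 2 was at least 265-fold higher than replicate 3. All SETBP1+NRAS libraries lay below all empty and all NRAS libraries, while NRAS replicate 3, at 114, lay within the range of the empty group and NRAS replicates 1 and 2, at 47.4 and 50.5, lay just below its lowest library, at 51.2.

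Prg2, the gene of major basic protein, was high and low in largely the same libraries. It had 1527, 882 and 1290 reads in the empty libraries, 227, 963 and 5 with SETBP1, 569, 711 and 1096 with NRAS and 467, 275 and 124 with SETBP1+NRAS. The normalised levels were 152 ± 34.5 CPM in the empty group, 51.3 ± 66.0 with SETBP1, 103 ± 32.5 with NRAS and 39.1 ± 24.5 with SETBP1+NRAS (SD, n = 3 each). The highest SETBP1 library exceeded the lowest 213-fold, against 1.55-fold in the empty group, 1.85-fold with NRAS and 3.91-fold with SETBP1+NRAS. SETBP1+NRAS replicates 1 to 3 had 65.3, 35.2 and 16.7 CPM and did not overlap the empty or the NRAS group.

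Prg3, the paralog of Prg2, was read about an order of magnitude less often. Its counts were 129, 73 and 107 in the empty libraries, 30, 63 and 3 with SETBP1, 27, 55 and 70 with NRAS and 29, 6 and 5 with SETBP1+NRAS. Normalised levels were 12.7 ± 2.94, 4.07 ± 3.96, 6.63 ± 2.74 and 1.83 ± 1.93 CPM in that order of groups (SD, n = 3). All 9 libraries with a mutant lay below the lowest empty library, at 9.27 CPM, although NRAS replicate 3 (8.87) and SETBP1 replicate 2 (8.23) came close to it. How many of all genes tested share this relation was not counted, so nothing is read from it. The 2 transcripts are 65.7% identical and share no stretch of 50 bases, so their reads can be told apart.

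**Figure D1:**
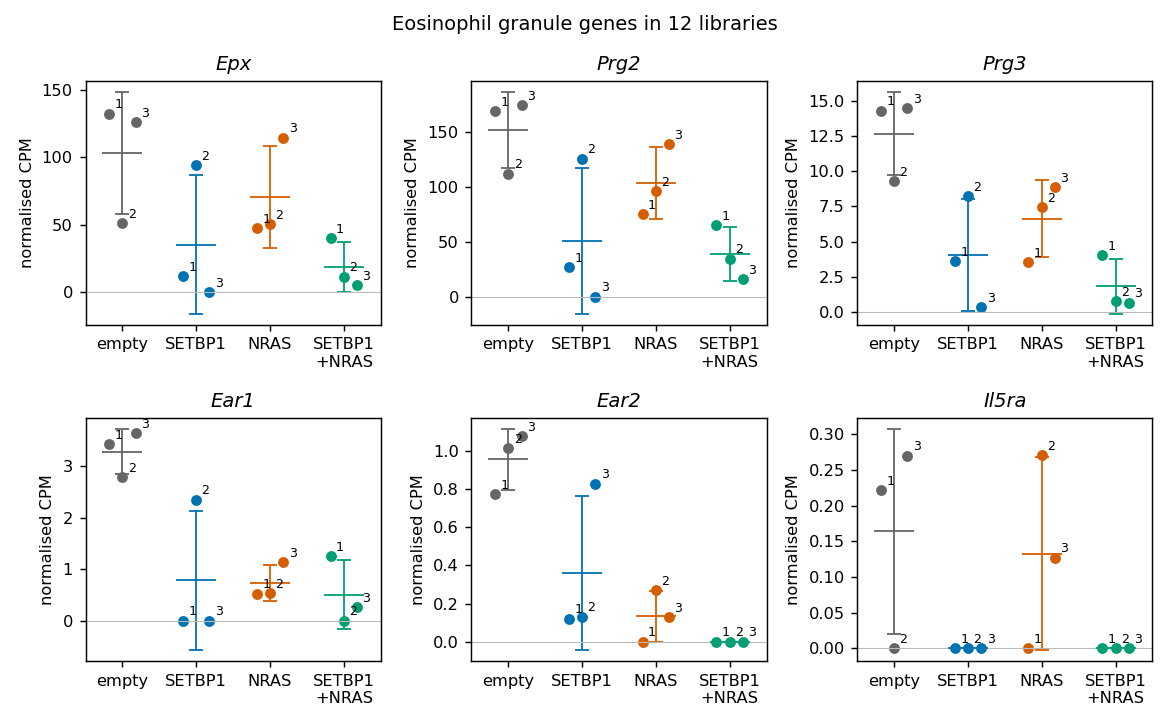
Normalised CPM (TMM-scaled counts, vertical axes) of the 6 genes in each library, grouped by vector pair on the horizontal axes; points are libraries labelled by replicate, horizontal bars are means and whiskers are ± 1 SD (n = 3). Epx and Prg2 in SETBP1 replicate 2 (94.0 and 126 CPM) sit among the empty and NRAS libraries, while SETBP1 replicate 3 sits at 0 and 0.592.

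The ribonuclease genes were rare and highest in the empty group. Ear1 had 31, 22 and 27 reads in the empty libraries, 0, 18 and 0 with SETBP1, 4, 4 and 9 with NRAS and 9, 0 and 2 with SETBP1+NRAS. Its mean level was 3.29 ± 0.442 CPM in the empty group, 0.784 ± 1.36 with SETBP1, 0.737 ± 0.350 with NRAS and 0.509 ± 0.663 with SETBP1+NRAS (SD, n = 3), and no library with a mutant reached the lowest empty library. Ear1 passed the low-count filter only through the empty group, which partly set this relation, and its share over all genes tested was not counted. The 18 reads of SETBP1 replicate 2 compare with none in its 2 companions, and the level of replicate 2 was at least 6.51-fold higher than that of replicate 1. Ear2 had 7, 8 and 8 reads in the empty libraries, 1, 1 and 7 with SETBP1, 0, 2 and 1 with NRAS and none with SETBP1+NRAS. In contrast to Epx, Prg2, Prg3 and Ear1, Ear2 was read most often, among the SETBP1 libraries, in replicate 3. The Ear1 and Ear2 transcripts are 96.8% identical over 713 bases and 23.8% of the 50-base stretches of Ear1 also occur in Ear2, so the split of reads between the pair is uncertain.

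Il5ra, the receptor chain for interleukin-5, had 2, 0 and 2 reads in the empty libraries, 0, 2 and 1 in the NRAS libraries and none in the 6 libraries that carried SETBP1. These counts lie under the floor of 3 reads per library in all 12 libraries, which corresponds to 0.332 to 0.420 normalised CPM, so no difference between groups was detectable for this gene. Il5 itself had 1 read in all libraries together.

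Scaled by exon length, Prg2 was the most abundant granule gene in the empty group at 181 normalised CPM per kb of exon, followed by Epx at 37.7, Prg3 at 13.3, Ear1 at 4.51, Ear2 at 1.33 and Il5ra at 0.0458. The order of Epx, Prg2 and Prg3 was the same in every group mean. Among the 10993 genes tested, Epx had the largest spread between libraries of one group, with a pooled within-group SD of 2.34 in log2 CPM (prior count of 2), against a median of 0.191 over all genes. Prg2 came second with 1.93, while Prg3 ranked 23 with 1.22 and Ear1 ranked 27 with 1.19. Without SETBP1 replicate 3 the SD of Epx was 1.25 and it still ranked 1, Ear1 ranked 3 with 1.16, and Prg2 and Prg3 ranked 53 and 56 with 0.842 and 0.833. The granule genes were selected for this spread, so the ranks place them among the other genes without testing them.

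Epx, Prg2, Prg3 and Ear1 varied together from library to library. The Pearson r of log2 CPM between Epx and Prg2 was 0.992 over the 12 libraries and 0.991 after centring each library on its group mean. Without SETBP1 replicate 3 these values were 0.987 and 0.980. For Epx with Prg3 and with Ear1, r was 0.897 and 0.777 over the 12 libraries, and 0.919 and 0.834 without SETBP1 replicate 3. The libraries share depth and group means, and the correlations are descriptions.

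The proportions between granule genes varied less than their levels: over 11 libraries Epx ranged from 5.11 to 132 normalised CPM but from 30.6 to 82.3 reads per 100 Prg2 reads. Against 100 Prg2 reads there were 78.3, 45.7 and 72.2 Epx reads in the empty libraries, 43.2 and 74.7 in SETBP1 replicates 1 and 2, 63.1, 52.5 and 82.3 in the NRAS libraries and 60.8, 32 and 30.6 in the SETBP1+NRAS libraries. The exact binomial 95% intervals, which cover counting error only, separate empty replicate 1 (72.5 to 84.5) from empty replicate 2 (40.5 to 51.5), so the proportion also varied within a group. Prg3 gave 8.45, 8.28 and 8.29 reads per 100 Prg2 reads in the empty libraries. Across the other libraries it ran from 2.18 (0.794 to 4.81) in SETBP1+NRAS replicate 2 to 13.2 (8.71 to 19.4) in SETBP1 replicate 1. Ear1 gave 2.03, 2.49 and 2.09 reads per 100 Prg2 reads in the empty libraries, and 0.703, 0.563 and 0.821 in the NRAS libraries. It gave 0 and 1.87 in SETBP1 replicates 1 and 2 and 1.93, 0 and 1.61 in the SETBP1+NRAS libraries, so libraries of both groups lay near the empty values as well as at 0. The ratios of the empty and NRAS groups did not overlap, but their intervals did, with tops of 1.45 to 1.81 with NRAS and bottoms of 1.37 to 1.56 in the empty group. SETBP1 replicate 3 is left out of these proportions because it held 5 Prg2 reads.

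**Figure D2:**
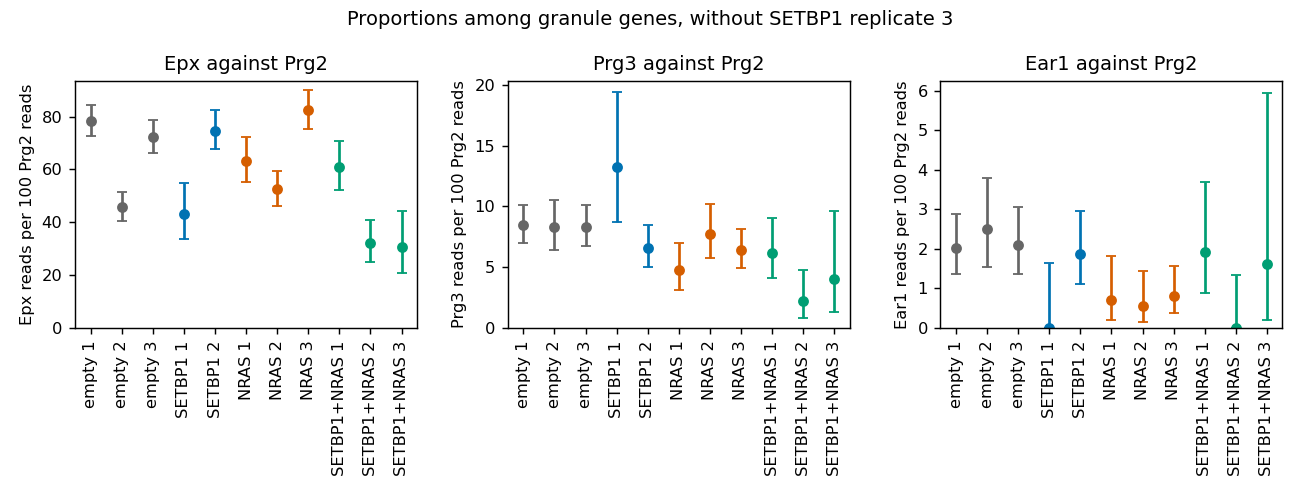
Reads of Epx, Prg3 and Ear1 per 100 Prg2 reads (vertical axes, starting at 0) in 11 libraries along the horizontal axes, colours marking the groups; points are the ratios and bars are exact binomial 95% intervals for counting error. The 3 empty libraries lie at 8.28 to 8.45 for Prg3 and at 2.03 to 2.49 for Ear1, and the 3 NRAS libraries lie at 0.563 to 0.821 for Ear1.

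Fitted log2 fold changes summarise the groups, with standard errors that carry the spread described above. Of the 6 genes, Epx, Prg2, Prg3 and Ear1 passed the low-count filter, Ear1 only through its reads in the empty group, and Ear2 and Il5ra were not fitted. Against the empty group, the SETBP1 group gave -1.56 (SE 0.95) for Epx, -1.58 (SE 0.81) for Prg2, -1.65 (SE 0.66) for Prg3 and -2.10 (SE 0.93) for Ear1. Without SETBP1 replicate 3 these values were -0.98, -1.0, -1.11 and -1.51. Leaving out SETBP1 replicate 2 instead gave -4.12 for Epx and -3.43 for Prg2, so which of the 2 libraries is kept decides the size of the difference.

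The NRAS group against the empty group gave -0.54 (SE 0.92) for Epx, -0.55 (SE 0.78) for Prg2, -0.93 (SE 0.63) for Prg3 and -2.13 (SE 0.94) for Ear1, and differences between the genes were not tested. The SETBP1+NRAS group had the lowest values against empty, at -2.47 (SE 1.01), -1.96 (SE 0.83), -2.80 (SE 0.74) and -2.69 (SE 1.01) for Epx, Prg2, Prg3 and Ear1. Against NRAS alone it gave -1.93 (SE 1.01) for Epx and -1.41 (SE 0.82) for Prg2. Against SETBP1 alone it gave -0.91 (SE 1.02) for Epx and -0.38 (SE 0.83) for Prg2. Here the sign depended on 1 library: without SETBP1 replicate 2 the values were 1.64 and 1.47, and without SETBP1 replicate 3 they were -1.5 and -0.97.

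The overlap of the groups was also counted, without a fit. SETBP1 lay below empty with no overlap in 2 of the 4 filtered genes (Prg3 and Ear1), a relation that 16.5% of all genes tested also showed. NRAS lay below empty in the same 2 genes (27.9% of all genes), and SETBP1+NRAS lay below empty in all 4 (30.5%). SETBP1+NRAS lay below NRAS in Epx and Prg2 (12.9%) and below SETBP1 in none of the 4 (24%). The median fold change over the 4 genes was -1.62, -0.74, -2.58, -1.64 and -0.75 in the order of these comparisons, whereas the median of all genes tested lay between -0.01 and 0.00 in each. Ear1 passed the filter only through its reads in the empty group, so its place below that group was partly set by the filter. Because of this, and because the genes were chosen with these values known, nothing is read from their shares or medians.

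The bulk levels cannot separate fewer eosinophil-lineage cells from less granule RNA per cell. Summed markers of other lineages were measured in the same libraries, but these are bulk levels too and cannot separate them either. Mast cell and basophil markers (16 genes, Mcpt1 at 0) summed to 3084 to 3170 normalised CPM in the empty group, 1668 to 2356 with SETBP1, 713 to 1205 with NRAS and 369 to 553 with SETBP1+NRAS. Neutrophil markers (12 of 13 listed genes in the table) summed to 11413 to 12876, 5214 to 7469, 5959 to 7625 and 2011 to 2518. Early granule genes (6 of 6), which are shared by immature myeloid cells, summed to 24747 to 27384, 18305 to 20087, 9895 to 11516 and 5761 to 6317. These 3 sums were lower in every mutant group than in the empty group, as the granule genes were on average, and their part in the granule gene values was not tested. Monocyte and macrophage markers (14 of 14) summed to 4600 to 5156, 5618 to 8049, 4101 to 4476 and 4071 to 4439 in the same order of groups. They were highest with SETBP1 and reached their maximum in SETBP1 replicate 3. With NRAS and with SETBP1+NRAS these sums were lower than in the empty group. For SETBP1+NRAS this held for the sum and not for most of its members. Fitted log2 changes against empty were positive for 10 of the 14 genes, with a median of 0.31. With NRAS only 4 of the 14 were positive, and the median was -0.62.

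Within groups, the granule genes together ranged from 1.77 to 231 normalised CPM, 130-fold, between SETBP1 libraries, 4.85-fold between SETBP1+NRAS libraries, 2.08-fold between NRAS libraries and 1.81-fold between empty libraries. The highest and lowest sums of the mast cell and basophil list differed by 1.41-fold with SETBP1 and by 1.5-fold with SETBP1+NRAS, and those of the neutrophil list by 1.43-fold and 1.25-fold. In the NRAS group the mast cell and basophil sums were 713, 846 and 1205, and their range of 1.69-fold was the widest of the 4 lists above. They stood in the same order as the granule genes, at 127, 155 and 264, whereas the neutrophil sums, at 7625, 6026 and 5959, ran in reverse. In the other groups the order differed. Mast cell and basophil sums were 2356, 1668 and 2157 with SETBP1, against 42.9, 231 and 1.77 for the granule genes. With SETBP1+NRAS they were 485, 369 and 553 against 110, 47.2 and 22.7. The empty libraries had 3128, 3170 and 3084 against 320, 176 and 319. SETBP1 replicate 3, the library with 0 Epx reads, did not have the lowest mast cell and basophil sum of its group.

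A sum can hide its members, and that of the mast cell and basophil list was led by Prss34, a basophil protease, with 1432, 930 and 1404 normalised CPM in the SETBP1 libraries. Gzmb and Kit of this list, singled out after their values were seen, were lowest in SETBP1 replicate 3. Gzmb, which encodes granzyme B, had 25, 80 and 8 reads in the SETBP1 libraries, the same order as Epx, and 151, 205 and 145 with SETBP1+NRAS, a different order. Its r with Epx after centring on group means was 0.910, and 0.712 without SETBP1 replicate 3. Kit, the stem cell factor receptor, had 49.0, 40.2 and 11.8 CPM in the SETBP1 libraries, and its r with Epx was 0.818 with and -0.0933 without replicate 3. Elsewhere in this list, r with Epx after centring was negative for Tpsb2 (-0.535), Fcer1a (-0.423), Prss34 (-0.254), Mcpt8 and Il4. It was 0.117 to 0.595 for Ms4a2, Hdc, Cpa3, Tph1 and Cma1, replicate 3 included. The erythroid list, low throughout and with the globins Hba-a1, Hba-a2, Hbb-bs and Hbb-bt at 0 in every library, summed to 6.50, 5.49 and 1.66 CPM in the SETBP1 libraries. The megakaryocyte list summed to 288, 301 and 623, so replicate 3 was the lowest SETBP1 library in the first and the highest in the second. The part of these markers in the granule gene values was not tested.

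**Figure D3:**
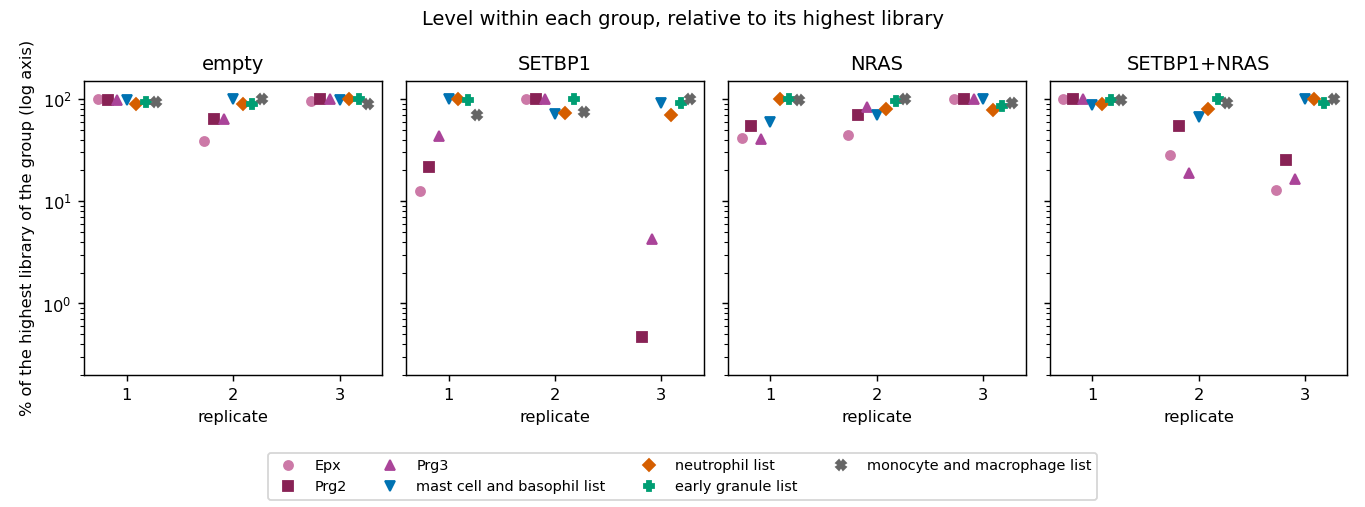
Level in each library as a percentage of the highest library of its group (vertical log axis) by replicate (horizontal axis), 1 panel per group, for Epx, Prg2, Prg3 and 4 summed marker lists. In the SETBP1 panel Prg2 drops to under 1% in replicate 3 and Epx, with 0 reads there, has no point, while the highest and lowest libraries of a group differ by at most 1.69-fold in the 4 lists plotted.

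Genes known to act around the granule genes were read next, from lists of further ribonucleases, interleukin-5 receptor signalling, lineage transcription factors, surface proteins and chemokines, and lipid mediator enzymes. Of 69 listed genes 61 were in the table and 51 were tested, by edgeR's quasi-likelihood test with Benjamini-Hochberg adjustment over 10993 genes and a threshold of 0.05. With SETBP1 19 of the 51 changed against empty (5 higher, 14 lower), where 14.9% of all genes tested were called. With NRAS 25 changed (9 higher, 16 lower; 32.5% of all genes) and with SETBP1+NRAS 34 (10 higher, 24 lower; 40.6%). SETBP1+NRAS differed from NRAS in 7 (1 higher, 6 lower; 1.91%) and from SETBP1 in 35 (14 higher, 21 lower; 42.4%). Without SETBP1 replicate 3 the 5 counts were 20, 35, 40, 15 and 35. The share of all genes called was not counted without that library. Nothing is therefore read from these 5 counts, or from the counts per list without it below. Median log2 fold changes of the 51 genes were -0.21, -0.26, -0.36, -0.11 and -0.26.

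The interaction, which asks whether the SETBP1 change differs with and without NRAS, was past the threshold for 0 of the 51 genes in edgeR (0.0455% of all genes). Of these 51, 17 had an unadjusted edgeR p under 0.05, as had 1420 of the 10993 genes tested. DESeq2 called 2, and edgeR called 3 without SETBP1 replicate 3. The share of all genes was not counted for these 2 alternatives, so nothing is read from their counts. The smallest adjusted p in edgeR's quasi-likelihood test was 0.172, for Gata1, with a log2 difference of -1.29 (SE 0.28). Without SETBP1 replicate 3 it was -1.21, with an edgeR adjusted p of 0.0326.

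Among the ribonuclease relatives, Rnase2a was the best read. Per kb of exon it reached 70.6 normalised CPM in the empty group, above Ear1 and Ear2. It had 55.4, 65.5 and 25.2 CPM in the empty libraries, 17.1, 23.9 and 25.3 with SETBP1, 35.9, 31.5 and 29.0 with NRAS and 35.2, 27.9 and 15.3 with SETBP1+NRAS, and fell by 1.14 on the log2 scale with SETBP1 (edgeR adjusted p = 0.0306). That call was lost with only the compared groups fitted and without empty replicate 1 or 2 or SETBP1 replicate 1 or 2, with edgeR adjusted p of 0.0526 to 0.114. It did not share the gap of Epx and Prg2 between SETBP1 replicates 2 and 3. Ear6 had 10, 4 and 6 reads in the empty libraries and 0 to 6 elsewhere, and Ear10 and Ear14 were at 0 in all.

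Of 14 tested genes of interleukin-5 receptor signalling, 4 fell with SETBP1 in edgeR's quasi-likelihood test, among them Jak2 (-1.02) and Csf2rb (-0.30). With NRAS 3 fell and 1 rose, and with SETBP1+NRAS 7 fell and 1 rose. The calls made up 28.6%, 28.6% and 57.1% of the list, against 14.9%, 32.5% and 40.6% of all genes tested. With NRAS the share was thus below that of all genes. The list had 5, 10 and 12 calls in these comparisons without SETBP1 replicate 3, in place of 4, 4 and 8. Pim1, a kinase induced by STAT5, had the largest change of the list against empty, -1.35 with NRAS and -2.14 with SETBP1+NRAS. Csf2ra and Csf2rb2, the chains for GM-CSF and interleukin-3, changed by -0.69 and -0.68 with NRAS. The common beta chain Csf2rb kept a mean of 447, 362, 399 and 396 normalised CPM in the empty, SETBP1, NRAS and SETBP1+NRAS groups, so the receptor partner was well read where Il5ra was not. The Csf2rb call was lost without empty replicate 1 or 3 and with only the compared groups fitted (edgeR adjusted p = 0.0647 to 0.168), and that of Csf2ra without empty replicate 1 or 2 or NRAS replicate 1 or 3 (0.0652 to 0.113). SETBP1+NRAS against NRAS gave 0 calls in edgeR in this list, where 1.91% of all genes were called. An unadjusted edgeR p under 0.05 was found for 3 of the 14, and for 1283 of the 10993 genes tested. DESeq2 gave 1 call and edgeR without SETBP1 replicate 3 gave 1, with the share of all genes not counted.

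Among the transcription factors, Gata1, Ets1 and Cebpe were lower with SETBP1+NRAS than with NRAS. Gata1, required for eosinophil, mast cell and erythroid development, had 24.4 ± 2.02 normalised CPM in the empty group, 17.2 ± 2.30 with SETBP1, 16.3 ± 2.53 with NRAS and 4.67 ± 1.30 with SETBP1+NRAS (SD, n = 3). With SETBP1+NRAS the log2 change was -2.38 against empty (edgeR adjusted p = 9.87e-07) and -1.80 (SE 0.21) against NRAS (edgeR adjusted p = 7.01e-04). Cebpe, which drives secondary granule genes, changed by -1.17 against empty and -0.96 against NRAS, and Ets1 by -2.56 and -1.52. The Cebpe call against NRAS was lost on leaving out any 1 of the 6 libraries compared (edgeR adjusted p = 0.0504 to 0.131). With SETBP1 against empty, Cebpe and Gata1 were not called, at -0.26 and -0.50 (edgeR adjusted p = 0.344 and 0.0784). Without SETBP1 replicate 3 both were called, at -0.60 and -0.58 (edgeR adjusted p = 0.00238 and 0.0335). Gata2 had means of 167, 99.4, 119 and 79.3 CPM and log2 changes of -0.75 with SETBP1, -0.49 with NRAS and -1.08 with SETBP1+NRAS against empty. Of these, the SETBP1 call was lost without empty replicate 1 or 3 and with only the compared groups fitted (edgeR adjusted p = 0.0566 to 0.085), and the NRAS call with any empty or SETBP1+NRAS library or NRAS replicate 1 or 2 left out (0.0552 to 0.169). Trib1 and Id2 went the other way, rising by 1.96 and 1.52 with NRAS. Of the 14 factors tested, 5 changed with SETBP1, 9 with NRAS, 10 with SETBP1+NRAS against empty and 3 against NRAS. Of all genes tested, 14.9%, 32.5%, 40.6% and 1.91% were called in these comparisons. Without SETBP1 replicate 3 the counts of factors were 6, 11, 11 and 6.

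Siglecf, an inhibitory lectin of mouse eosinophils that also marks other myeloid cells, was ordered by group with little spread. It had 27.2, 24.4 and 25.5 normalised CPM in the empty libraries, 15.1, 16.9 and 13.4 with SETBP1, 9.65, 8.93 and 8.87 with NRAS and 3.36, 5.38 and 4.44 with SETBP1+NRAS. The 4 groups did not overlap, a relation whose share over all genes tested was not counted. In edgeR's quasi-likelihood test the log2 change against empty was -0.77 with SETBP1 (adjusted p = 0.00943), -1.49 with NRAS (adjusted p = 1.50e-05) and -2.54 with SETBP1+NRAS (adjusted p = 1.24e-07). Unlike Epx, Siglecf differed by 1.26-fold between the highest and lowest SETBP1 libraries, and SETBP1 replicate 3 had 13.4 CPM. The SETBP1 call was lost when only the 2 groups compared were fitted (edgeR adjusted p = 0.0699) and when empty replicate 1 was left out (0.051). Ccr3, the eotaxin receptor, had 4, 0 and 0 reads in the empty libraries, 1, 13 and 0 with SETBP1, 2, 3 and 2 with NRAS and 9, 10 and 7 with SETBP1+NRAS, too few to be tested, and Ccl11 was at 0.

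Of the surface and chemokine genes, 5 of 12 tested changed with SETBP1 (1 higher, 4 lower), 6 with NRAS (2 higher, 4 lower) and 7 with SETBP1+NRAS (3 higher, 4 lower). Il1rl1, the interleukin-33 receptor, fell by 1.37 with SETBP1+NRAS, and the chemokine Ccl5 rose by 2.23 with SETBP1. Among 10 lipid mediator enzymes, 4, 6 and 8 changed in the same 3 comparisons. Of all genes tested, 14.9%, 32.5% and 40.6% were called in them. Leaving out SETBP1 replicate 3 gave 5, 6 and 8 for the surface list and 3, 8 and 8 for the lipid list. Ptgs2, the inducible cyclooxygenase, rose by 5.25 with NRAS and 5.30 with SETBP1+NRAS, the largest changes in these lists. Lta4h, leukotriene A4 hydrolase, changed by -0.28 with SETBP1, -0.98 with NRAS and -1.56 with SETBP1+NRAS, and Alox15 by -1.61 with SETBP1+NRAS. The SETBP1 call of Lta4h was lost without any 1 empty library or SETBP1 replicate 2 and with only the compared groups fitted (edgeR adjusted p = 0.0544 to 0.148), and that of Alox15 without empty or SETBP1+NRAS replicate 1 or 2 (0.0548 to 0.127).

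**Figure D4:**
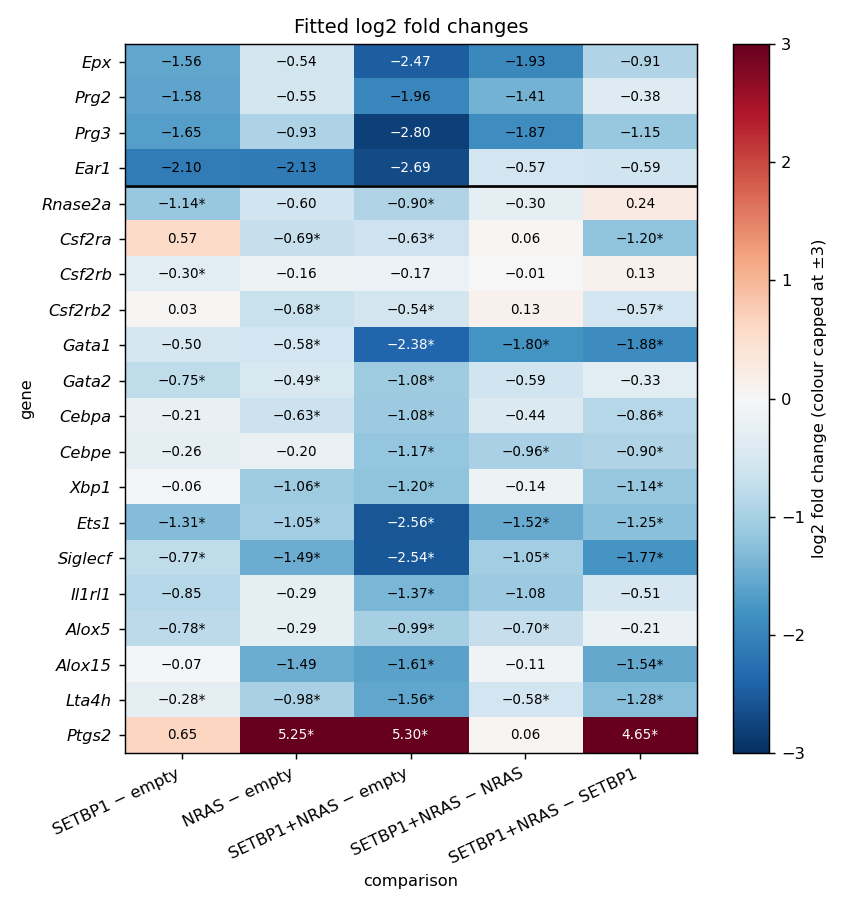
Fitted log2 fold changes in 5 comparisons (columns) of the 4 fitted granule genes, above the black line, and 16 genes of the eosinophil-related lists chosen for display, below it; colour and printed number give the log2 value, colour capped at ±3, and asterisks below the line mark an edgeR adjusted p under 0.05. The granule genes are blue throughout without a test, Siglecf, Ets1 and Lta4h are called in all 5 columns, and Ptgs2 stands at 5.25, 5.30 and 4.65 in the columns that add NRAS. All values and asterisks are from the fit of all 12 libraries, and some calls were lost in other fits, as given above for Siglecf and Lta4h with SETBP1. Siglecf for SETBP1+NRAS against NRAS was lost without SETBP1+NRAS replicate 1 (edgeR adjusted p = 0.0596). Ets1 for SETBP1 against empty was lost with only the compared groups fitted (edgeR adjusted p = 0.0638).

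Finally, the genes whose library-to-library pattern was most like that of each granule gene were listed from 10676 candidates, by Pearson r of log2 CPM. Over the 12 libraries, Rab43 (0.960), Gse1 (0.954) and Hps5 (0.953) were closest to Epx, Zkscan5 (0.966) and Ppm1f (0.964) to Prg2, Sorbs3 (0.941) to Prg3 and Anapc2 (0.902) to Ear1. The amplitudes were far apart: Rab43 varied 2.12-fold and Gse1 1.94-fold over the libraries, Zkscan5 14.4-fold, and Prg2 294-fold. Without SETBP1 replicate 3, 2 of the 5 genes nearest to Epx, 0 of those nearest to Prg2, 1 of those nearest to Prg3 and 2 of those nearest to Ear1 were again among the 5 nearest, and Kcnk5 was then the nearest gene to Epx (0.935), Prg2 (0.929) and Prg3 (0.956). After centring on group means, Cc2d2a was closest to Epx (0.977), Smad1 to Prg2 (0.979), Slc46a3 to Prg3 (0.979) and Iqcc to Ear1 (0.916), and without SETBP1 replicate 3 none of the 5 nearest to Epx or Prg2 remained.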

How the data were processed

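RNA-seq counts per gene were measured in 12 mouse bone marrow libraries, 4 groups of 3; total RNA was extracted and libraries were made from low input with a SMART-Seq kit, per the labels' protocols. The deposited values are whole-number read counts per gene symbol as the authors made them. STAR, DESeq2 and mm10 are named in the submitters' processing notes, and how reads were counted, the strand setting and the treatment of reads with several matches are not given in the sources used here, which matters for Ear1 and Ear2.

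Groups came from the sample labels. Counts were fitted in edgeR 4.0.16 (R 4.3.3, limma 3.58.1) over all 12 libraries with TMM scaling, genes kept by filterByExpr (minimum count 10, minimum total 15), quasi-likelihood tests and Benjamini-Hochberg adjustment over 10993 genes. Each value per library rests on 7085894 to 8864919 reads, and 3 reads was taken as the floor. The 6 granule genes and all lists were chosen with earlier results of these data known. The granule genes are given without a test. Named genes were all 6 granule genes, Csf2rb, Csf2rb2, Gata1, Gata2, Cebpe, Siglecf and Ccr3, up to 4 called genes per list and comparison with the largest change, and the 5 most alike genes; 16 genes shown in the plot of fold changes were picked for display. Alternatives were DESeq2 1.42.0, other scaling, no filter, fits on the compared groups, a replicate block and leaving out each library; likeness and spread without SETBP1 replicate 3 were added after seeing the data. The main fit did not pair libraries by replicate number. Of 18 same-number pairs, 1 had a correlation of deviations over 0.1, which cannot show that the libraries were unpaired. The fit was tested on simulated data in which all genes had the same small spread and no library stood apart. That test does not cover genes as variable as the granule genes.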

Additional observations from a re-analysis of the deposited data

Results flagged for a closer look

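Id2 and Pla2g4a were the genes of the eosinophil-related lists in which SETBP1 moved all libraries apart in opposite directions without and with NRAS. How many of all genes tested meet this rule was not counted, so nothing is read from the number that do. For Id2, an inhibitor of helix-loop-helix factors, the SETBP1 change was 0.58 on the log2 scale without NRAS and -0.23 with NRAS, and the interaction was -0.81 (SE 0.24, edgeR quasi-likelihood adjusted p = 0.253). SETBP1 replicate 3 carried much of the first change: Id2 had 150 normalised CPM in it, against 82.2 and 90 in the other SETBP1 libraries and 64.6 to 81.5 in the empty libraries. Without it the SETBP1 change was 0.26 (edgeR adjusted p = 0.0523, no longer past the threshold, against 0.04 with it) and the interaction was -0.49 (SE 0.11, edgeR adjusted p = 0.0464). For Pla2g4a, cytosolic phospholipase A2, it was -0.30 without NRAS and 0.23 with NRAS, with an interaction of 0.53 (SE 0.16, edgeR quasi-likelihood adjusted p = 0.245, and 0.0859 without SETBP1 replicate 3). With all 12 libraries neither interaction passed the threshold.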

How the results depend on the processing

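The fold changes of Epx, Prg2, Prg3 and Ear1 that follow moved by more than 1 SD of log2 CPM within the groups compared. That SD includes the libraries left out, so large shifts can stay under it: without SETBP1 replicate 2, Epx went from -1.56 to -4.12 for SETBP1 against empty and from -0.91 to 1.64 for SETBP1+NRAS against SETBP1. Leaving out 1 library at a time gave, for SETBP1+NRAS against empty, -3.64 to -2.02 for Epx, -4.10 to -2.41 for Prg3 and -4.49 to -2.09 for Ear1. Against NRAS the ranges were -3.10 to -1.40 for Epx, -3.17 to -1.48 for Prg3 and -2.36 to 0.0304 for Ear1. Ear1 ran from -7.70 to -1.51 for SETBP1 and -2.59 to -1.94 for NRAS against empty, and from -2.39 to 5.0 for SETBP1+NRAS against SETBP1. The values of -7.70 and 5.0 come from leaving out SETBP1 replicate 2; the remaining SETBP1 libraries are then at 0, so both depend on the prior count and are not measured folds.

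Of 107 alternative counts of changed eosinophil-related genes, 94 stayed within 1.5 times the reported count. SETBP1 against empty gave 3 with only the compared groups fitted and 9 to 26 with 1 library left out (9 without empty replicate 1, 11 without empty replicate 3). SETBP1+NRAS against NRAS gave 12 by DESeq2, 17 with only the compared groups and 3 to 15 with 1 library left out (omitting the third SETBP1 library gave 15, the third NRAS library 4, and the first and second SETBP1+NRAS libraries 3 and 4). The interaction gave 2 by DESeq2 and 0 to 3 with 1 library left out. A replicate block, which only shares numbers across groups, gave 1 call for the interaction and moved no other of these counts by over 1.5 times. Of the calls named above, it ended those of Csf2rb with SETBP1 (edgeR adjusted p = 0.0534), Gata2 with NRAS (0.061) and Alox15 with SETBP1+NRAS (0.0599) against empty. For named genes, 1589 of 1722 alternative values kept their side of the threshold, 122 lost the call and 11 gained it. Among values called in either fit, 0 changed direction. Values called in neither fit could change sign and were counted as kept. An example is the interaction of Csf2rb2, at 0.107, and -0.133 without empty replicate 3. Genes with few reads, such as Ear2, Il5ra and Ccr3, are limited by depth.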
